A study of Caenorhabditis elegans with 21 samples.

Results

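The libraries numbered 3 were compared with the libraries numbered 2 in a study of the DAF-16/FoxO transcription factor of the nematode Caenorhabditis elegans. The members were chosen by the replicate number in the sample titles alone: 7 libraries carry the number 3 and 7 the number 2, 14 of the 21 libraries in all. Each number holds 1 library of each of the same 7 genotypes, so that a library numbered 3 was set against the library numbered 2 of its own genotype. The 7 libraries numbered 1 entered the fit and are given beside them. Nothing in the labels says what a number stands for or that replicates came from separate cultures, so the p-values measure the spread between these libraries, which may be technical.

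Poly(A) RNA of whole animals at day 1 of adulthood was sequenced in pairs of reads of 100 cycles. Per the labels, every population was synchronized by an egg-lay of 4 hours, raised at 15 °C to the last larval stage (L4) and held at 20 °C for 20 to 24 hours more, and plates that carried males were discarded. Both numbers hold the same genotypes. There are 5 daf-16;daf-2 double mutants: daf-16(mu86);daf-2(e1370), the daf-16 null; daf-16(mg54);daf-2(e1370), which affects the isoforms a and f; daf-16(tm5030);daf-2(e1370) and daf-16(tm5032);daf-2(e1370), which affect isoform a; and daf-16(tm6659);daf-2(e1370), which affects isoform f. The other genotypes are daf-2(e1370), a long-lived mutant of the insulin-like receptor that is wild type for daf-16, and N2 wild-type. Per-sample values are counts scaled to a common library size after TMM scaling (CPM). They are levels of a locus across libraries and not per transcript length.

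A hermaphrodite of this species first makes sperm late in larval life, stores them, and then switches its germ line to oocytes for the rest of its reproductive life. Major sperm protein builds the cytoskeleton of the crawling sperm and is made during spermatogenesis alone, while the adult gonad fills oocytes with maternal RNAs for the embryo and for the eggshell, and the intestine makes yolk. The body wall muscle, the pharynx, the neurons and the cuticle-secreting skin make up most of the soma. In RNA of whole animals, fewer cells of a type and less RNA per cell cannot be told apart.

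The libraries numbered 3 held 31008253 to 40599861 counts in named and unnamed loci (median 36404693), against 30384772 to 39185417 (median 35050480) in those numbered 2. Genotype took 43.7% of the variance of log2 CPM and the replicate number 33.7%. The first principal component held 51.8% of the variance and was higher in the library numbered 3 than in the library numbered 2 in all 7 genotypes. After subtraction of the genotype means, all 21 pairs of libraries numbered 3 correlated above 0.1 (median r = 0.61 across loci), as did all 21 pairs numbered 2 (median r = 0.59) but only 15 of the 21 pairs numbered 1 (median r = 0.17). Loci are not independent replicates, and these values describe the libraries. Some libraries went less with their own number. In daf-16(mu86);daf-2(e1370), the one numbered 2 had a median r of 0.23 with the others numbered 2, and the one numbered 1 had a median r of 0.57 with libraries numbered 2, against 0.13 with those numbered 1. The daf-2(e1370) library numbered 1 had a median r of 0.38 with libraries numbered 3, against 0.15 with those numbered 1. The N2 wild-type library numbered 1 had 0.18 with libraries numbered 2, against 0.10. The counts of all loci and the sperm and collagen medians are also given without daf-16(mu86);daf-2(e1370), whose library numbered 2 enters the main comparison. In the other lists called here, leaving this genotype out kept the sign of the median.

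A locus was called changed at a Benjamini-Hochberg adjusted p under 0.05 in edgeR's quasi-likelihood test with terms for genotype and replicate number. By this rule 8105 of 12091 loci tested changed (67% of those tested): 4378 were higher in the libraries numbered 3 (36.2%) and 3727 lower (30.8%). The 2 directions differed in size. Higher loci had a median change of 0.89 on the log2 scale (1.85-fold) and lower loci a median decrease of 1.19-fold. A change of at least 2-fold was reached by 2059 loci (17% of those tested), 1942 of them higher and 117 lower (0.968%). In all 7 genotypes, 3174 loci were higher in the library numbered 3 (26.3%) and 2406 lower (19.9%). Without the genotype daf-16(mu86);daf-2(e1370), 7895 loci were called, 4265 higher and 3630 lower. The split depends on the scaling: on the deposited FPKM values with 1 added, 1897 loci were higher and 6820 lower, and the median of all loci stood at -0.34 on the log2 scale. In what follows, each list of genes is described by its counts beside these shares and by its median beside that of all loci, 0.07. The shares varied with level. In the quartile of loci above 64.4 CPM, 67.4% were lower and 14.1% higher, with a median of -0.17. In the quartile between 1.43 and 9.44 CPM, 54.5% were higher and 12.2% lower, with a median of 0.40.

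**Figure D1:**
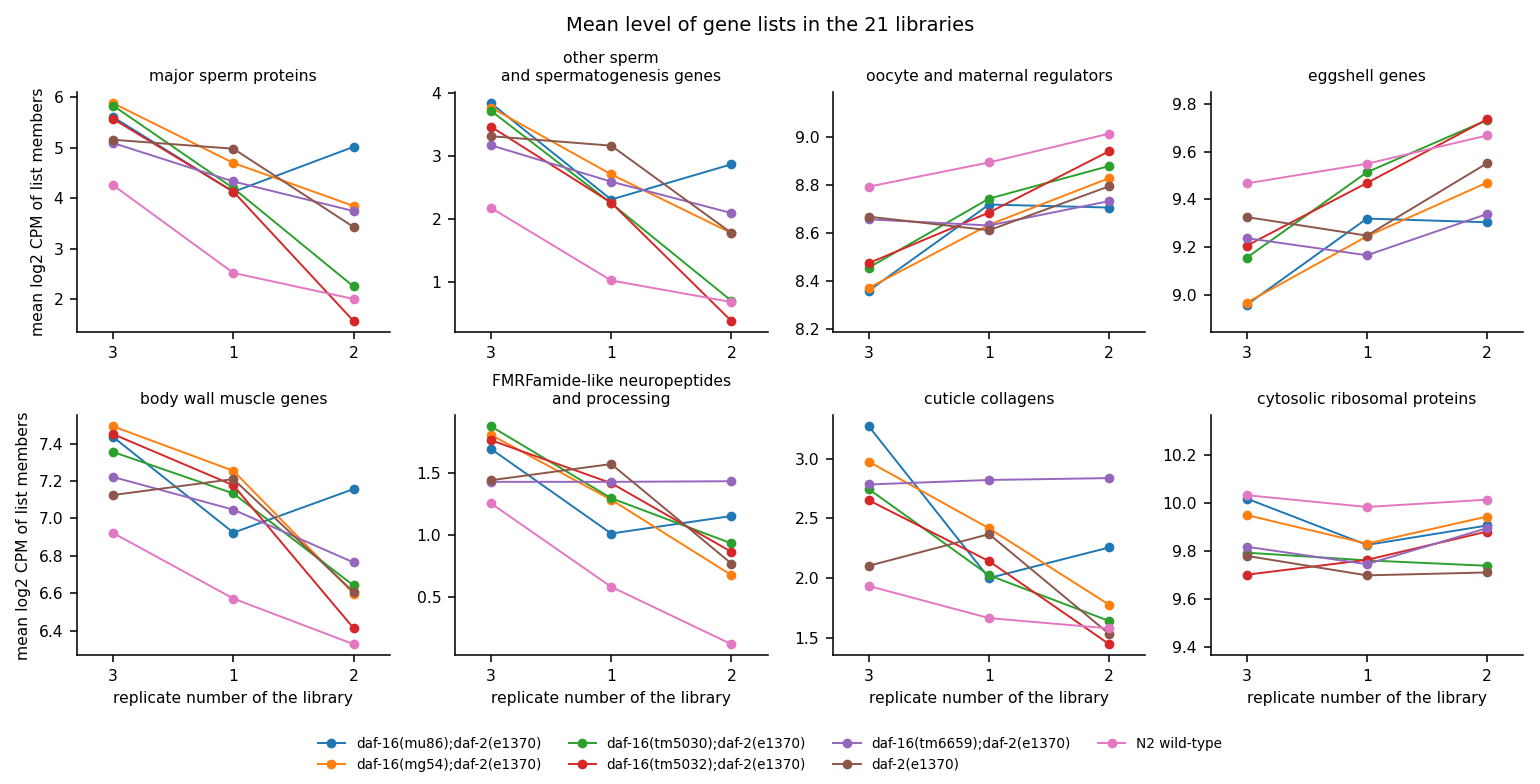
Mean log2 CPM of the members of 8 gene lists (vertical axis, a separate range of at least 1 in each panel) in every library, by the replicate number 3, 1 and 2 (horizontal axis); each line joins the 3 libraries of 1 genotype. Sperm lists are higher in the library numbered 3 than in the library numbered 2 in every genotype, oocyte and eggshell lists are lower, and the ribosomal list lies close to level, with a median of -0.03 whose sign turns under upper-quartile scaling, in loci averaging 2 CPM or more, and without daf-16(tm5032);daf-2(e1370).

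Major sperm proteins were higher in the libraries numbered 3 at every locus tested. Of 31 loci of this family in the table, 29 passed the filter on low counts, and all 29 were called higher, with a median log2 fold change of 2.25 (2.53 without daf-16(mu86);daf-2(e1370)). The summed level of the family was 945 to 2642 CPM (median 2138) in the libraries numbered 3, against 345 to 1478 CPM (median 716) in those numbered 2. Gene copies of this family are nearly identical, so that the split of reads among them is uncertain. The sum does not depend on that split, and it includes the merged locus aagr-2/msp-31, which had 277 to 451 CPM in number 3 and 211 to 352 CPM in number 2. The 28 loci that hold 1 gene ranged from 1.63 to 2.54, all above 2-fold. The remaining locus merges msp-31 with the alpha-glucosidase gene aagr-2 and had a log2 fold change of 0.35.

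The most abundant single-gene locus of the family, msp-81 on chromosome IV, had 60.2 to 224 CPM (median 162) in the libraries numbered 3, against 8.19 to 109 CPM (median 30.1) in those numbered 2. Its log2 fold change was 2.26 ± 0.36 (SE; edgeR, adjusted p = 0.000114). The ranges overlap, because the daf-16(mu86);daf-2(e1370) library numbered 2 lies above the N2 and daf-16(tm6659);daf-2(e1370) libraries numbered 3, yet the library numbered 3 was the higher in all 7 genotypes. msp-50 on chromosome II rose by 2.25 ± 0.33 (SE; edgeR, adjusted p = 8.21e-05), with 23.5 to 78.8 CPM in number 3 and 2.87 to 36.5 CPM in number 2.

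Genes of sperm other than this family moved the same way. Of 62 loci that passed the filter, out of 66 in the table, 55 were higher and 6 lower, with a median of 2.15 (2.41 without daf-16(mu86);daf-2(e1370)). Among the higher ones were fer-1, a ferlin of membrane fusion in maturing sperm (2.38), the spermatogenesis Argonaute alg-3 (2.66), the sperm phosphatase genes gsp-3 (2.55) and, in a merged locus, gsp-4 (2.04), the fertilization gene spe-9 (1.84) and the sperm-delivered toxin peel-1 (2.07). sss-2, of a family of small sperm-specific genes, had the largest change of the list at 2.93 ± 0.44 (SE; edgeR, adjusted p = 8.88e-05). It had 7.42 to 54.3 CPM (median 42) in number 3 and 1.15 to 17 CPM (median 4.22) in number 2.

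spe-15, a myosin VI that sorts components out of the maturing sperm, had 33.7 to 111 CPM (median 88) in number 3 and 15.3 to 53.7 CPM (median 26.1) in number 2, with a log2 fold change of 1.63 ± 0.22 (SE; edgeR, adjusted p = 6.62e-05). Regulators of the sperm fate and of spermatogenesis had smaller values. The sperm-fate regulator fog-3 rose by 0.89, while fog-1, an RNA-binding regulator of the sperm fate, fell by 0.35 and cpb-1, an RNA-binding protein needed for spermatogenesis, fell by 0.18 on the log2 scale. The other 4 lower loci of the list are merged with neighbouring genes (impt-1/spe-38, the ctn-1 locus with spe-47, F25H8.2/spe-29 and chp-1/pas-3/spe-5), and ssp-37 at 0.22 was not called.

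The size of the sperm difference varied among genotypes. The median over major sperm protein loci of number 3 minus number 2 was 1.03 on the log2 scale in daf-16(mu86);daf-2(e1370), 2.09 in daf-16(mg54);daf-2(e1370), 3.70 in daf-16(tm5030);daf-2(e1370), 4.22 in daf-16(tm5032);daf-2(e1370), 1.44 in daf-16(tm6659);daf-2(e1370), 1.83 in daf-2(e1370) and 2.31 in N2 wild-type. With 1 library of each number in a genotype, differences between genotypes in this value were not tested.

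Males are another source of sperm RNA, and plates with males were discarded. The 11 loci of male neurons and glands summed to 6.43 to 14.8 CPM in the libraries numbered 3 and 3.59 to 8.15 CPM in those numbered 2, and nearly all of that sum came from the merged locus C45G9.6/klp-6, which holds a kinesin gene of ciliated neurons of both sexes. Without this locus, the 10 others summed to 0.752 to 1.78 CPM in number 3 and 0.375 to 1.3 CPM in number 2. The male-neuron gene cwp-1 was at 0 in all 21 libraries, and the male polycystin gene pkd-2 did not exceed 0.0795 CPM in number 3 or 0.0954 CPM in number 2. lov-1 was at 0 in 2 of 7 libraries numbered 3 (at most 0.131 CPM) and in 7 of 7 numbered 2. cwp-2 reached 0.0657 CPM in number 3 and was at 0 in number 2. The highest levels of her-1 and try-5 were lower in number 3 (0.291 and 0.167 CPM) than in number 2 (0.445 and 0.196 CPM). The part of males in the sperm values was not tested. Of the 4 loci that passed the filter, C45G9.6/klp-6 and cwp-4 (a mean of 0.133 CPM; edgeR, adjusted p = 0.0423) were higher and 0 lower by edgeR, and 1 locus was higher by DESeq2, by limma-voom and on leaving out daf-2(e1370), daf-16(mg54);daf-2(e1370), daf-16(tm5030);daf-2(e1370) or daf-16(tm6659);daf-2(e1370). The counts of 0 by edgeR given for the full set of libraries in the male, oocyte, germ granule and pharynx lists were also 0 at an unadjusted p under 0.05 and by DESeq2 and limma-voom.

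**Figure D2:**
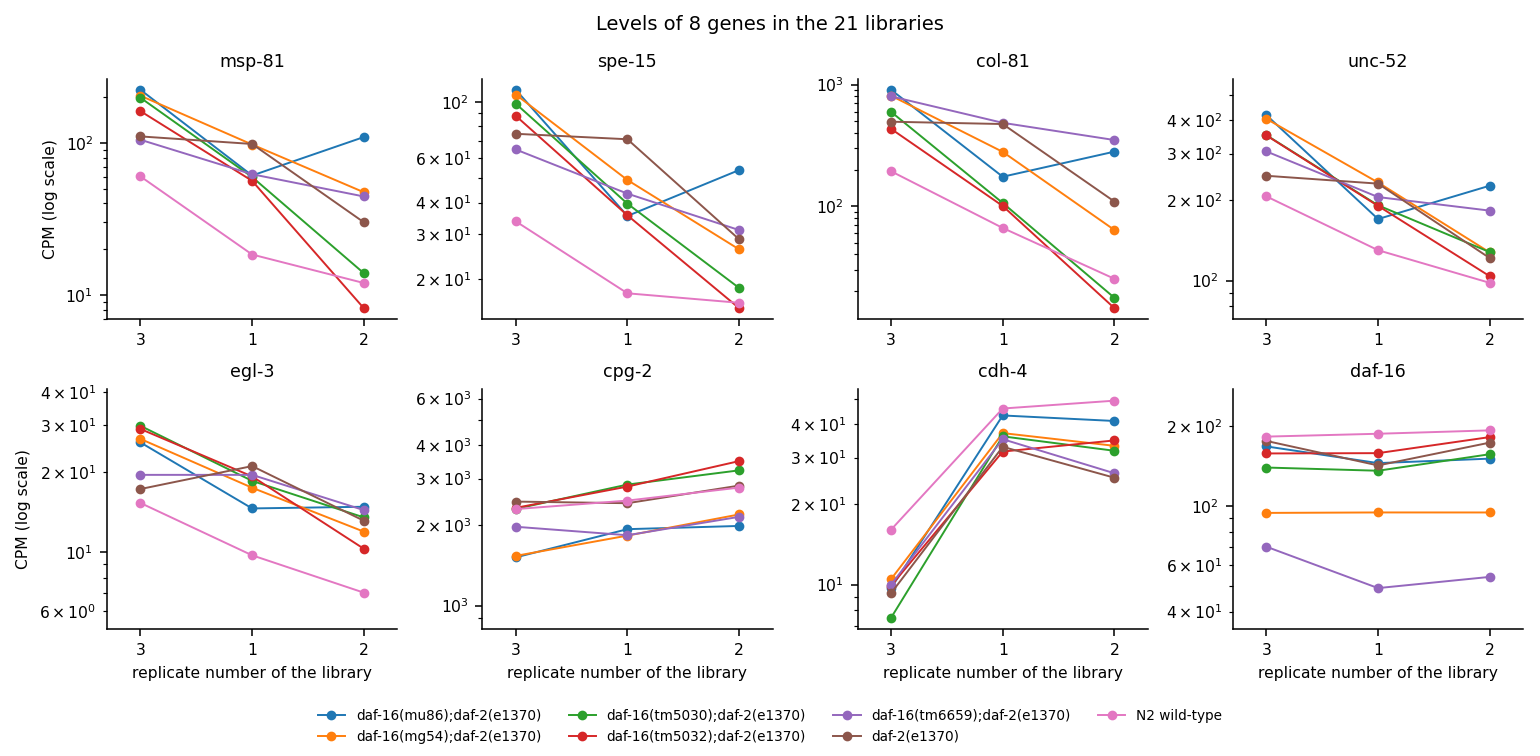
Levels of 8 genes in CPM (vertical axis, log scale) in the 21 libraries, by the replicate number 3, 1 and 2 (horizontal axis); each line joins the 3 libraries of 1 genotype. msp-81, spe-15, col-81, unc-52 and egl-3 are higher in number 3 than in number 2 in all 7 genotypes, cpg-2 is lower in all 7, cdh-4 is low in number 3 alone, and daf-16 shows no common direction on the count scale.

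Genes of the oocyte fell in the libraries numbered 3, by less than the sperm genes rose. Of 28 loci of oocyte and maternal regulators, all of which passed the filter, 26 were lower (92.9%) and 0 higher by edgeR at an adjusted p under 0.05. The median was -0.31, and the list was lower in all 7 genotypes, by 0.08 in daf-16(tm6659);daf-2(e1370) to 0.50 in daf-16(mg54);daf-2(e1370). The list is abundant, with a mean log2 CPM of 8.36 to 8.79 in number 3. Among all loci above 64.4 CPM, 67.4% were lower, with a median of -0.17. The merged locus F54C9.9/puf-5, which holds a Pumilio-family repressor of maternal RNAs, had 321 to 490 CPM (median 374) in number 3 and 476 to 664 CPM (median 573) in number 2. Its log2 fold change was -0.56 ± 0.07 (SE; edgeR, adjusted p = 5.03e-05), and the ranges overlap slightly. The yolk receptor gene rme-2 fell by 0.42 and mei-1, a katanin subunit of the meiotic spindle, by 0.39, while nos-2 (in acs-6/nos-2, -0.08) and cyb-1 (in cyb-1/grl-21, 0.07) were not called.

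All 13 eggshell loci were lower, with a median of -0.37 that ran from -0.61 to -0.10 over the 7 genotypes. This list is abundant too (mean log2 CPM of 8.96 to 9.47 in number 3), so the same 67.4% and -0.17 stand beside it. cpg-2, a chondroitin proteoglycan of the eggshell, had 1517 to 2459 CPM (median 2304) in number 3 and 1991 to 3491 CPM (median 2775) in number 2, a log2 fold change of -0.36 ± 0.05 (SE; edgeR, adjusted p = 8.79e-05). cbd-1, a chitin-binding protein of the vitelline layer, had 1725 to 2540 CPM (median 1818) in number 3 and 2239 to 2909 CPM (median 2583) in number 2, a log2 fold change of -0.37 ± 0.07 (SE; edgeR, adjusted p = 0.000209). Both genes were lower in the library numbered 3 in all 7 genotypes, although the ranges over genotypes overlap.

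Germ granule and meiosis genes fell by less: 24 of 31 loci were lower and 0 higher by edgeR, with a median of -0.18. Among them, syp-3 of the synaptonemal complex fell by 0.30, the meiotic double-strand-break enzyme gene spo-11 by 0.31, and the Notch receptor gene glp-1 of germline stem cells by 0.24. The list is abundant, with a mean log2 CPM of 6.68 to 6.97 in number 3. Its share of lower loci, 77.4%, stood beside 67.4% among all loci above 64.4 CPM, whose median was -0.17. Of the yolk genes, 2 of 5 vitellogenin loci were lower, a share near that of all loci: vit-5 (-0.33 ± 0.08 SE; edgeR, adjusted p = 0.00163) and vit-2 (-0.22 ± 0.07 SE; edgeR, adjusted p = 0.00997). vit-6, at 19237 to 26460 CPM in number 3 and 20570 to 29916 CPM in number 2, was not called (adjusted p = 0.126 by edgeR). The count of lower vitellogenin loci was 4 under RLE scaling, by DESeq2 and without N2 wild-type, 5 on the FPKM scale and 0 with no genotype term.

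Genes that the embryo switches on, present in eggs held in the mother, summed to 285 to 362 CPM in the libraries numbered 3 and 354 to 427 CPM in those numbered 2. Of 14 loci that passed the filter, out of 20, 6 were lower and 1 higher (the merged locus nob-1/php-3), with a median of -0.43 over the loci. The merged locus lin-26/lir-1/lir-2 made up more than any other of that sum, at 167 to 211 CPM in number 3 and 194 to 245 CPM in number 2. Genes of early embryonic fate such as end-1, end-3, med-1 and tbx-37 did not exceed 0.311 CPM in any library numbered 3 or 0.444 CPM in any numbered 2. The lower loci were ceh-51 (-1.18), vet-2 (-0.74), die-1 (-0.44), tbx-9 (-0.41), B0304.2/hlh-1 (-0.29) and lin-26/lir-1/lir-2 (-0.25). The pair medians of this list had no common sign, from -0.87 in daf-16(mu86);daf-2(e1370) to 0.40 in daf-16(tm5032);daf-2(e1370). The part of embryos in the oocyte and eggshell values was not tested.

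**Figure D3:**
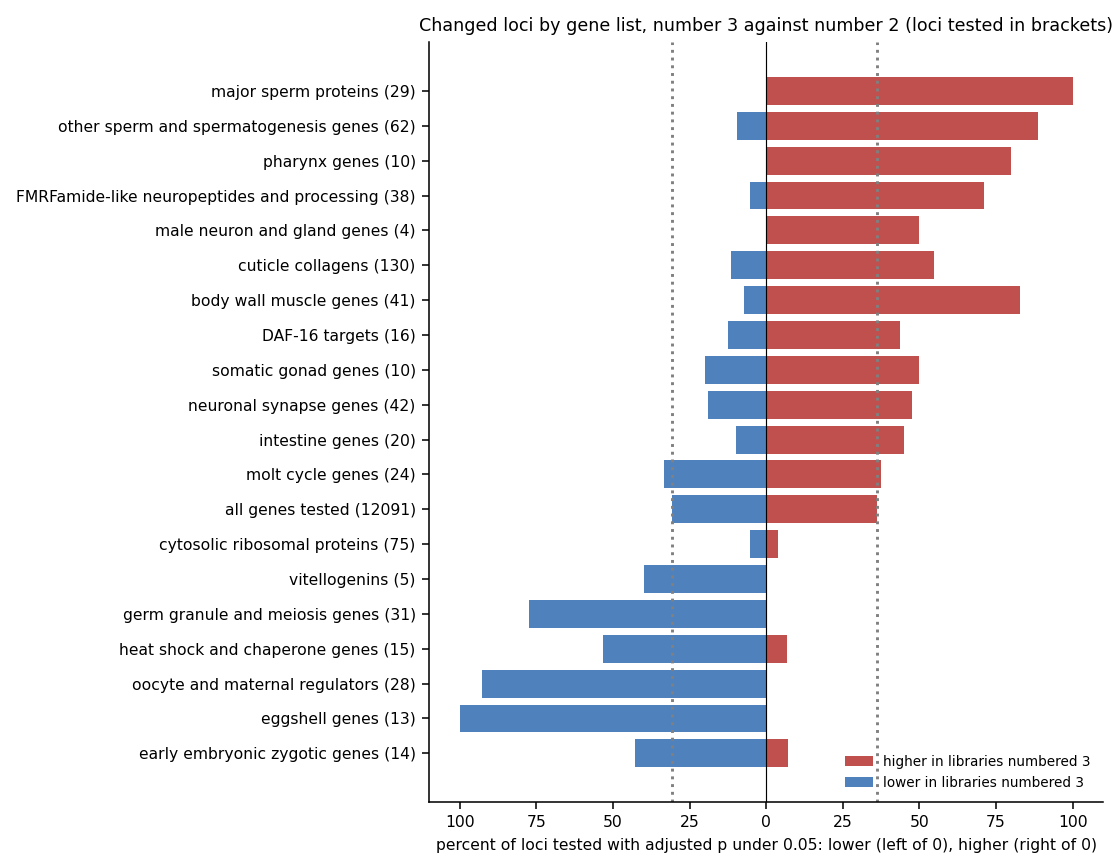
Percent of the tested loci of each list called higher (right of 0) or lower (left of 0) in the libraries numbered 3 than in those numbered 2, with the number of loci tested in brackets and dotted lines at the shares of all loci (36.2% higher, 30.8% lower). Lists are ordered by their median change, from major sperm proteins at 2.25 to early embryonic genes at -0.43; on the FPKM scale the medians of the synapse, molt, intestine, somatic gonad and DAF-16 target lists turn negative.

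Body wall muscle genes were higher: of 41 loci, 34 were higher and 3 lower, with a median of 0.72 and pair medians of 0.37 to 1.08. On the FPKM scale with 1 added 18 loci were higher and 10 lower, and the median was 0.15, 0.49 above that of all loci. unc-52, the perlecan that anchors muscle to the skin, had 207 to 419 CPM (median 351) in number 3 and 98 to 227 CPM (median 128) in number 2, a log2 fold change of 1.22 ± 0.14 (SE; edgeR, adjusted p = 4.79e-05). The locus with the main body wall myosin, aex-5/unc-54, had 1350 to 2732 CPM (median 2379.5) in number 3 and 555 to 1908 CPM (median 828) in number 2, a log2 fold change of 1.25 ± 0.18 (SE; edgeR, adjusted p = 8.46e-05). The thick-filament genes myo-3 (1.26), unc-15 (1.09), unc-89 (1.04) and unc-22 (1.01) rose by a like amount.

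Other muscle loci had smaller values. The attachment gene unc-97 rose by 0.48 from counts, but its value was -0.11 on the FPKM scale, and the actin locus act-1/act-2 was not called at 0.05. The 3 lower loci were unc-45, a myosin chaperone (-0.24), pat-3, the beta integrin (-0.15), and unc-60, an actin-severing factor (-0.11). In the pharynx, the feeding organ with its own muscle, 8 of 10 loci that passed the filter were higher and 0 lower by edgeR, with a median of 1.00 (5 higher and 1 lower on the FPKM scale). Its myosins myo-1 (1.20) and myo-2 (1.46) and its troponins tnc-2 (1.58) and tnt-4 (1.73) were among them, whereas the organ's master regulator pha-4 was not called (-0.03). The pair median of the pharynx list was near level in daf-16(mu86);daf-2(e1370), at 0.07, and 1.81 in daf-16(tm5032);daf-2(e1370).

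FMRFamide-like neuropeptides and the enzymes that process them were higher at 27 of 38 loci and lower at 2, with a median of 0.82. On the FPKM scale with 1 added, 15 were higher and 6 lower, with a median of 0.28. Among the 18 loci that averaged 2 CPM or more, 13 were higher and 2 lower on counts, with a median of 0.68. egl-3, the proprotein convertase that cuts neuropeptide precursors, had 15.3 to 29.8 CPM (median 25.8) in number 3 and 7.03 to 14.8 CPM (median 13.1) in number 2, with no overlap of the ranges, as at 1.54% of all loci in this direction. Its log2 fold change was 0.95 ± 0.13 (SE; edgeR, adjusted p = 7e-05). flp-33 rose by 1.78, flp-13 by 1.68 and flp-1 by 1.61, while flp-6 fell by 0.83. In daf-16(tm6659);daf-2(e1370) the pair median of the list was 0.08.

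Genes of the synapse and of transmitters were higher at 20 of 42 loci and lower at 8, with a median of 0.27 that turned to -0.21 on the FPKM scale with 1 added, where 6 were higher and 23 lower. The higher ones included eat-4, the glutamate transporter (1.36 ± 0.19 SE; edgeR, adjusted p = 7.45e-05), the glutamate receptor gene glr-1 (1.37), complexin cpx-1 (1.31) and synaptotagmin snt-1 (1.05). The lower ones included genes with a level far above those. tbh-1, which makes octopamine, had 199 to 322 CPM (median 254) in number 3 and 245 to 404 CPM (median 363) in number 2, a log2 fold change of -0.40 ± 0.05 (SE; edgeR, adjusted p = 5.86e-05). The synaptojanin gene unc-26 fell by 0.31, and the synaptobrevin locus snb-1/syx-18 by 0.26. The summed level of this list was lower in number 3, at 2982 to 3375 CPM against 3145 to 3566 CPM in number 2, although its median locus was higher. On the FPKM scale with 1 added, the list median was 0.13 above that of all loci. On counts, 47.6% of the list was higher, beside 54.5% of all loci between 1.43 and 9.44 CPM. The share was 34.2% of all loci between 9.45 and 64.4 CPM.

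**Figure D4:**
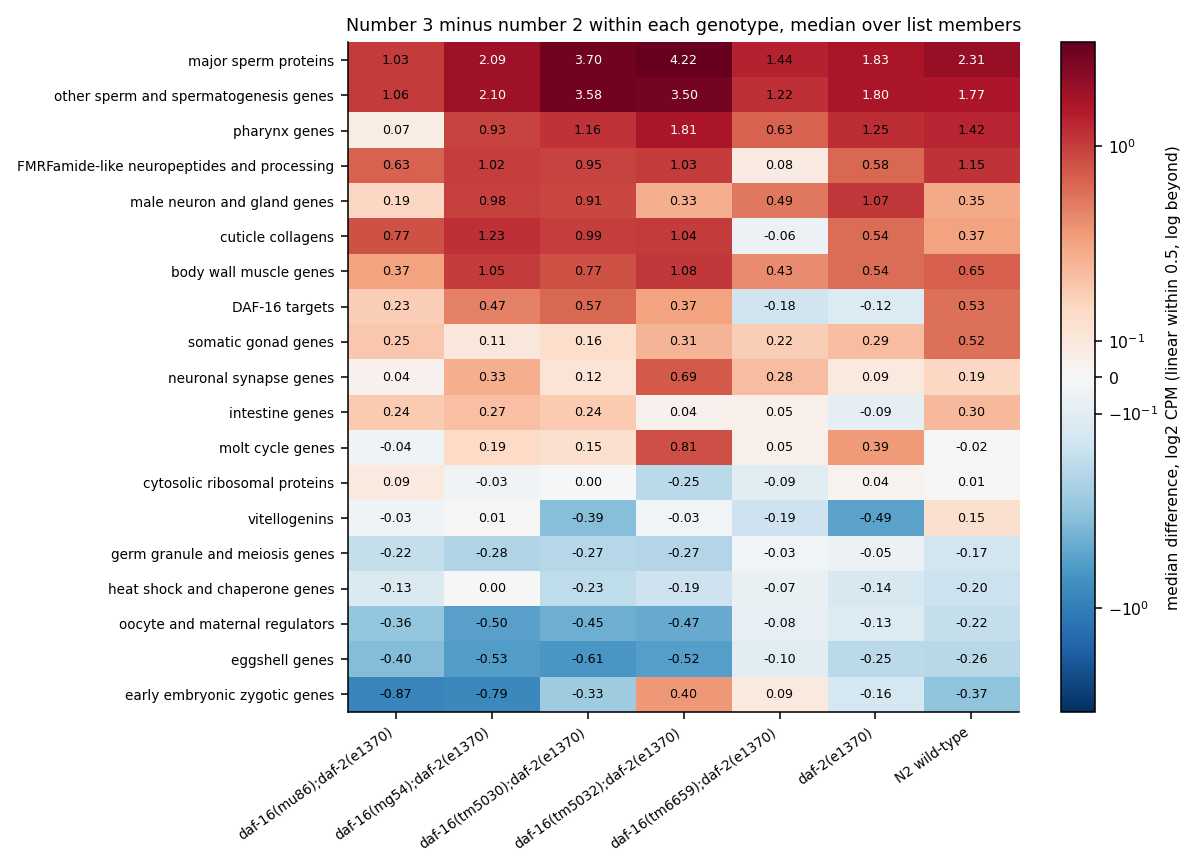
Median over list members of the difference in log2 CPM, number 3 minus number 2 (colour and printed value), for 19 gene lists (vertical axis) in each of the 7 genotypes (horizontal axis). The sperm lists are positive and the oocyte, eggshell and germ granule lists negative in all 7 genotypes, the collagens are at -0.06 in daf-16(tm6659);daf-2(e1370), and the values are on the count scale, on which the synapse, molt, intestine, somatic gonad and DAF-16 target medians lie above those on FPKM.

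Cuticle collagens were called higher at a share near that of all loci of like level. Of 130 loci that passed the filter, out of 174, 71 were higher (54.6%) and 15 lower (11.5%). Among all loci between 1.43 and 9.44 CPM, 54.5% were higher and 12.2% lower, with a median of 0.40. The collagen median was 0.73 (0.59 without daf-16(mu86);daf-2(e1370), and 0.07 on the FPKM scale with 1 added). Mean log2 CPM of the list was 1.93 to 3.27 in number 3. Among collagen loci that averaged 2 CPM or more, 53 of 67 were higher and 9 lower. Among the 10 largest increases of single named genes that were the same in all 7 pairs, 8 were collagens: col-7, col-146, col-129, col-147, col-149, col-81, col-133 and col-62, at 2.88 to 3.57. The others were sss-2 and ant-1.4, of the mitochondrial ADP/ATP carrier family (3.09).

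col-81 had 194 to 906 CPM (median 596) in number 3 and 14.5 to 350 CPM (median 63.6) in number 2, a log2 fold change of 2.98 ± 0.45 (SE; edgeR, adjusted p = 9.09e-05). The most abundant collagen locus, col-181, had 1539 to 3174 CPM (median 2802) in number 3 and 734 to 1923 CPM (median 1231) in number 2, a log2 fold change of 1.01 ± 0.12 (SE; edgeR, adjusted p = 5.56e-05). The lower loci included F17E9.2/col-116, at -1.36 ± 0.16 (SE; edgeR, adjusted p = 4.9e-05). The collagen median was positive in 6 genotypes and -0.06 in daf-16(tm6659);daf-2(e1370). Genes of the molting cycle were spread over both directions: 9 of 24 loci were higher and 8 lower, close to the shares of all loci, with a median of 0.11 that turned negative on the FPKM scale. With 1 added to FPKM, the molt median was 0.15 and the collagen median 0.41 above that of all loci. The count of lower molt loci was 4 without daf-16(mg54);daf-2(e1370) or daf-16(tm5030);daf-2(e1370) and 5 without daf-16(mu86);daf-2(e1370) or N2 wild-type.

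Intestinal genes were higher at 9 of 20 loci and lower at 2, with a median of 0.17 that turned to -0.41 on the FPKM scale, where 14 were lower, and the peptide transporter pept-1 rose by 0.73. Somatic gonad genes, of the sheath and spermatheca, were higher at 5 of 10 loci and lower at 2, with a median of 0.28 that turned to -0.27 on the FPKM scale, where 5 were lower. Set against the median of all loci on FPKM with 1 added, the somatic gonad list stood at 0.07 and the intestine list at -0.07. inx-8, a gap junction protein between sheath and germ line, fell by 0.42, and ceh-18, a regulator of the sheath, rose by 0.74. Of 75 loci of cytosolic ribosomal proteins, 3 were higher and 4 lower. The lower count moved with the scaling, to 0 under upper-quartile scaling, 19 under RLE scaling, 24 by DESeq2 and 72 on the FPKM scale, and to 0, 1, 1 and 2 without daf-16(tm5030);daf-2(e1370), daf-16(mg54);daf-2(e1370), daf-16(tm5032);daf-2(e1370) and daf-16(tm6659);daf-2(e1370). Heat shock and chaperone genes were lower at 8 of 15 loci and higher at 1 (4 under upper-quartile scaling), with a median of -0.21, and the hsp-16 genes fell by the most (hsp-16.41 by 1.85 and hsp-16.2 by 1.65).

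The gene mutated in the double mutants, daf-16, was not called. The daf-16 locus had 70.1 to 182 CPM (median 157) in number 3 and 54 to 192 CPM (median 156) in number 2, a log2 fold change of 0.01 ± 0.06 (SE; edgeR, adjusted p = 0.842), which was -0.58 on the FPKM scale, where the median of all loci was -0.34. The receptor gene daf-2 fell by 0.24 ± 0.05 (SE; edgeR, adjusted p = 0.000399). Among 16 loci of known DAF-16 targets, 7 were higher (43.8%, beside 36.2% of all loci) and 2 lower. The median was 0.31 and turned to -0.28 on the FPKM scale with 1 added, 0.06 above that of all loci. The list pools targets without regard to whether DAF-16 activates or represses them, so its counts and median do not measure DAF-16 activity. The counts were 6 higher and 7 lower by limma-voom, 5 higher and 5 lower without N2 wild-type, and 2 higher and 7 lower on the FPKM scale with 1 added, and 1 locus was called, higher, with no genotype term. sod-3, a mitochondrial superoxide dismutase and a standard reporter of DAF-16 activity, had 2.5 to 59 CPM (median 18) in number 3 and 1.38 to 45.4 CPM (median 7.22) in number 2, a log2 fold change of 0.80 ± 0.10 (SE; edgeR, adjusted p = 6.22e-05). It was higher in the library numbered 3 in all 7 genotypes. mtl-1, a metallothionein, fell by 0.92 at the more strongly changed of 2 loci with this name.

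Several of the largest decreases of named genes were low in the libraries numbered 3 against both other numbers. cdh-4, a giant cadherin of the Fat family, had 7.5 to 16.08 CPM (median 9.9) in number 3 and 25.2 to 49.1 CPM (median 33.2) in number 2. Its log2 fold change was -1.73 ± 0.09 (SE; edgeR, adjusted p = 6.45e-08), and every library numbered 3 lay below every library numbered 2, which 1.43% of all loci did. The libraries numbered 1 were at 31.6 to 45.9 CPM.

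Further genes of this kind were the cadherin cdh-3 (-1.63), the endosome tether eea-1 (-1.62), the chromatin remodeler xnp-1 (-1.18), the ubiquitin ligase ubr-4 (-1.12) and the checkpoint kinase atl-1 (-1.10). Against number 1, the libraries numbered 3 were lower by more in each of these 6 genes, from -1.57 for atl-1 to -2.61 for eea-1. For number 1 against number 2, the log2 fold change was 0.14 for cdh-4 and 1.00 for eea-1, beside 1.00 for msp-81 and 1.38 for col-81. cdh-4, ubr-4 and cdh-3 have long transcripts in the annotation, at 13422, 13399 and 10252 bases, and atl-1 has 7759 bases. Over 38 loci with transcripts above 10000 bases, the median was -0.40 for number 3 against number 1 and 0.28 for number 3 against number 2. ubql-1, at one of 2 loci of that name, had the lowest value among the genes named here, with a wide error: -3.78 ± 1.19 (SE; edgeR, adjusted p = 0.0112). It had 0 to 18.4 CPM in number 3, against 15.4 to 21.2 CPM in number 2. Its pair difference was -0.21 in N2 wild-type and -0.03 in daf-2(e1370), but between -8.30 and -5.78 in the 5 double mutants. plg-1 fell by 1.38 at one of 2 loci of its name. The split of reads between the 2 loci of ubql-1 or of plg-1 was not tested. The part of transcript length or RNA quality in these values was not tested.

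**Figure D5:**
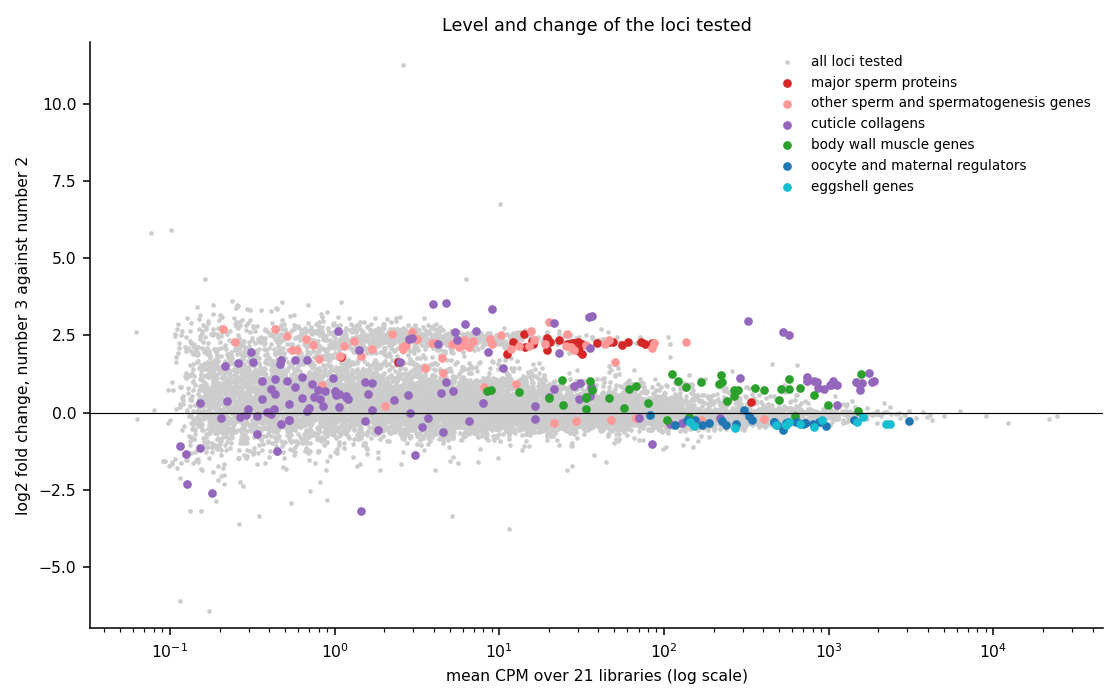
Log2 fold change of number 3 against number 2 (vertical axis) against the mean CPM over the 21 libraries (horizontal axis, log scale) for the 12091 loci tested (grey), with 6 gene lists in colour. The 28 major sperm protein loci that hold 1 gene lie between 1.63 and 2.54 over a wide span of levels. The split of reads among these near-identical copies is uncertain. The merged locus aagr-2/msp-31, the most abundant of that list, lies at 0.35. Most oocyte and eggshell loci lie just below 0 among the abundant loci, and the collagens spread widely.

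Higher and lower loci differed in level and in place. Higher loci had a median level of 4.1 CPM and lower loci one of 74.9 CPM. In the quartile of loci with the lowest level, 42% were higher and 5.36% lower, and in the quartile with the highest level, 14.1% were higher and 67.4% lower. The loci called higher held 14 to 21.9% of all counts of a library numbered 3, against 9.88 to 15.7% of one numbered 2. The loci called lower held 48.3 to 57.3% in number 3 and 55.7 to 62.8% in number 2. These loci were chosen by their direction in the same libraries, so the direction of both differences follows from the choice and only their size is descriptive. By chromosome, the X had 41.6% of 1831 loci higher and 20.2% lower, and chromosome III had 27.2% of 1741 loci higher and 39.8% lower. Where the annotation gave a transcript length, for 9719 loci (80.4%), the median change was 0.29 in the quartile with the shortest transcripts and -0.02 in the quartile with the longest.

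The libraries numbered 1 shared the fit, and each comparison below shares libraries with the one above, so that values are given side by side only. Against number 2, the libraries numbered 1 had 2009 loci called (16.6% of those tested), 1212 higher (10%) and 797 lower (6.59%). This count rested on single genotypes: it was 88 without daf-16(mg54);daf-2(e1370) and 4166 without daf-16(mu86);daf-2(e1370). The libraries numbered 3 against those numbered 1 had 4717 loci called (39%), 2714 higher (22.4%) and 2003 lower (16.6%). Major sperm proteins had a median of 2.25 for number 3 against number 2, 1.26 for number 3 against number 1 and 0.95 for number 1 against number 2. Body wall muscle genes had medians of 0.72, 0.32 and 0.40 in the same order of comparisons, and eggshell genes -0.37, -0.16 and -0.18. Of 29 major sperm protein loci, 27 were higher for number 3 against number 1, and only 2 for number 1 against number 2. In these comparisons 5 and 3 of 13 eggshell loci were lower. Of 41 muscle loci, 27 were higher and 3 lower in the former, and 28 higher and 1 lower in the latter. The summed major sperm protein level was 412 to 1456 CPM (median 982) in the libraries numbered 1. In daf-16(mu86);daf-2(e1370) this sum was lower in number 1 (921 CPM) than in number 2 (1478 CPM).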

How the data were processed

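RNA-seq of 21 libraries was re-analysed. Per the submitters' processing notes, the authors used CASAVA 1.8.2, TopHat2 2.0.9 and Cufflinks 2.1.1; genome build and annotation were not given in the sources used here. For each locus, the authors deposited expected counts (86.3% whole within 1e-09) and FPKM. The 3 entries that are not loci and 300 unnamed loci (1.06 to 1.54% of counts) were left out. Loci that hold several genes, 1989 in all with 41.7% of counts, keep all their names. Of 39443 names, 37963 (96.2%) matched Ensembl release 115, which gave chromosomes and transcript lengths.

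Counts were rounded and fitted with edgeR 4.0.16 (R 4.3.3): TMM, filterByExpr, quasi-likelihood test, terms for 7 genotypes and 3 replicate numbers, p-values 2-sided and Benjamini-Hochberg adjusted over 12091 loci, threshold 0.05. Fold changes carry standard errors. Alternatives used RLE and upper-quartile scaling, other filters, DESeq2 1.42.0, limma 3.58.1 (voom, or log2 FPKM with 1 or 0.1 added), no genotype term and genotypes left out. Genes named are the 10 largest changes each way above a mean level of 2 CPM and with 1 direction in all 7 pairs, the 2 most abundant and up to 4 most significant members of each of 19 lists, daf-16 and daf-2; further list members in the text were picked after their values were seen, to show a list's range. The members and lists were chosen with earlier results of these data known. Most lists hold genes typical of a tissue, some of which other tissues express too.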

Additional observations from a re-analysis of the deposited data

How the results depend on the processing

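The count of loci changed between numbers 3 and 2, 8105, stayed within 1.5 times under every alternative run, from 6301 (mean of at least 2 CPM) to 8722 (FPKM with 0.1 added, 1922 higher and 6800 lower), and from 7132 to 8008 with a genotype left out. Of number 1 against number 2, the 2009 loci became 3568 (DESeq2), 1275 (limma-voom), 5412 (FPKM with 1 added), 5440 (FPKM with 0.1 added) and 62 (no genotype term). With a genotype left out this count ran from 88 (daf-16(mg54);daf-2(e1370)) to 4166 (daf-16(mu86);daf-2(e1370)), and leaving out any of the 7 moved it by over 1.5 times. Of number 3 against number 1, the 4717 loci became 1001 with no genotype term and 2927 to 5260 with a genotype left out, lowest without daf-16(tm5030);daf-2(e1370).

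For daf-2(e1370) against N2 wild-type, 2018 loci were called without and 5330 with the replicate block. Each library numbered 3 and each numbered 2 correlated best with its own number (7 of 7 each), but 4 of 7 numbered 1 did, and not every pair passed 0.1, so the numbers are not shown to pair the samples. Leaving out single libraries gave 1237 (without N2 number 2) to 2304 loci without the block.

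FPKM with 1 and with 0.1 added moved most list medians down. They became -0.89 and -0.90 for oocyte regulators, -0.95 and -0.95 for eggshell, -0.75 and -0.75 for vitellogenins, -0.75 and -0.76 for germ granules, -0.62 and -0.62 for ribosomal proteins, -0.76 and -0.80 for heat shock, 0.15 and 0.15 for body wall muscle, 0.28 and 0.36 for neuropeptides, 0.069 and 0.13 for collagens, 0.027 and 0.14 for male genes, 0.32 and 0.52 for pharynx, and 1.36 and 1.65 for sperm genes other than major sperm proteins. Early embryonic genes stood at -0.42 and -0.88 (-0.43 on counts). Signs turned for synapse (-0.21 and -0.34), molt (-0.19 and -0.44), intestine (-0.41 and -0.41), somatic gonad (-0.27 and -0.31) and DAF-16 targets (-0.28 and -0.30). At a mean of at least 2 CPM the synapse median was 0.042. The medians of all loci were -0.34 and -0.47 on these scales. Set against these, the lists whose sign turned stood at 0.13 and 0.14 (synapse), 0.15 and 0.035 (molt), -0.07 and 0.064 (intestine), 0.073 and 0.17 (somatic gonad) and 0.062 and 0.18 (DAF-16 targets).

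Of 2066 values of 122 named loci, 1952 either kept their direction and call or were not called in either fit, whatever their sign. Another 62 kept their direction and lost a call, and 26 kept it and gained one. The sign turned in 26 values with a call in the main fit or the alternative. These were all on FPKM (with 1 and with 0.1 added): act-1/act-2 (-0.60, -0.60), unc-97 (-0.11, -0.11), asp-3 (-0.40, -0.40), asp-1 (-0.22, -0.22), nhx-2 (-0.13, -0.14), act-5 (-0.037, -0.038), lfe-2 (-0.17, -0.18), ipp-5 (-0.079, -0.085), rpl-3 (-0.58, -0.58), AH9.1/rpl-11.2 (-0.11, -0.11), glit-1/rpl-25.1 (-0.17, -0.17), C14F11.4/hsp-43 (-0.24, -0.25) and daf-16 (-0.58, -0.59). Low counts limit the genes under 1 CPM, and merged loci limit which gene a change belongs to. The causes of these shifts were not tested.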

Other observations

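Gene families grouped by name were picked after their values were seen and are described by their counts. Only loci that hold 1 gene were counted. Among all 10151 loci with at most 1 protein-coding gene, 38.9% were higher and 26.3% lower, with a median of 0.15, and the counts below stand beside these shares. The families were not matched by level, and shares varied with it. Of all loci tested, 42% were higher in the quartile with the lowest level and 54.5% between 1.43 and 9.44 CPM. Above 64.4 CPM, 67.4% were lower. A share such as that of the ins genes (52.4% higher) can therefore be near that of loci of like level. Bestrophin chloride channels (best) were higher in the libraries numbered 3 at 18 of 22 loci, with a median log2 fold change of 0.97, and sodium-coupled neurotransmitter transporters (snf) at 9 of 10 loci, with a median of 1.33. Neuropeptide-like protein genes (nlp) were higher at 38 of 51 loci and lower at 2, with a median of 0.88, and insulin-like peptide genes (ins) at 11 of 21 and lower at 1, with a median of 0.89. The irld genes, whose products resemble ligand-binding domains of the insulin and EGF receptors, were higher at 8 of 11 loci, with a median of 2.28. Potassium channels of the twk family were higher at 21 of 33 loci and globins (glb) at 14 of 23, with 0 lower in either family by edgeR at an adjusted or an unadjusted p under 0.05.

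Nuclear pore genes (npp) were lower in the libraries numbered 3 at 14 of 15 loci, with a median of -0.21, and vacuolar sorting genes (vps) at 13 of 16, with a median of -0.26. F-box genes of the fbxc group were lower at 11 of 21 loci, with a median of -0.42. Histone genes (his) were lower at 9 of 20 loci and higher at 3. In the fbxb group, 12 of 38 loci were lower (31.6%, near the 30.8% of all loci) and 0 higher by edgeR, also at an unadjusted p under 0.05. Subunits of the vacuolar proton pump (vha) were higher at 9 of 11 loci and lower at 2, with a median of 0.23.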
